A study of Mus musculus with 16 samples.

Results

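The genes described here are S100a8, S100a9, Ngp, Camp, Ltf, Lcn2, Mmp8, Mmp9, Retnlg and Cxcr2, 10 genes known as products of maturing and mature neutrophils. They were chosen by symbol, with earlier results on the same libraries known, from 30141 gene identifiers counted in bone marrow progenitors. All 10 passed the filter on low counts that left 18341 genes for testing. Ly6g, the sorting antigen of mature neutrophils, had no count in 9 of 16 libraries and at most 52 counts, in R882H azacitidine replicate 2. The genes are therefore called here by their names and not by a cell stage. Because the choice drew on measured values, their levels and differences are a description.

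Neutrophils build their granules in order as they mature. Promyelocytes make the azurophil (primary) granule proteins such as myeloperoxidase and elastase, and myelocytes and metamyelocytes then make the specific (secondary) granule proteins such as lactoferrin and the cathelicidin. Gelatinase granules follow, and receptors such as CXCR2 appear as the cells become ready to leave the marrow. The transcription factor C/EBP epsilon is required for the secondary granule programme. Of the 10 genes, Ngp, Camp, Ltf, Lcn2 and Mmp8 encode secondary granule proteins, Mmp9 a gelatinase granule protein, S100a8 and S100a9 the abundant cytosolic calcium-binding pair calprotectin, Retnlg a secreted resistin-like protein and Cxcr2 a chemokine receptor.

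RNA came from sorted LSK cells, the lineage-negative, Sca1-positive and Kit-positive marrow fraction that holds stem cells and early progenitors, in which these genes are not the characteristic products. The 16 libraries formed 4 groups: DNMT3A R882H with azacitidine (5 libraries), R882H with NaCl (4), WT with azacitidine (3) and WT with NaCl (4). R882H cells kept mouse WT DNMT3A and also expressed human DNMT3A R882H from a knock-in allele made in C57BL/6N-derived embryonic stem cells, silenced by a lox-stop-lox cassette until Mx1-Cre removed it. WT cells were +/+ for mouse DNMT3A. Mx1-Cre is driven by an interferon-responsive promoter and is not limited to LSK cells. Mx-Cre positive and negative donors both received poly(I:C), at 15 µg per g on 3 nonconsecutive days, and the labels give a further poly(I:C) schedule without saying which animals had it. Marrow taken 4 weeks later was mixed 1:1 with CD45.1 competitor marrow and transplanted into CD45.1 recipients, in all groups. Treatment began 2 weeks after transplant and lasted 2 weeks, in cycles of 5 treated and 2 untreated days. Recipients were injected with 2.5 mg per kg azacitidine, a cytidine analogue that is built into nucleic acids and depletes DNA methyltransferases, or with 0.9% NaCl. The labels say neither whether donor cells were separated from competitor cells nor whether each library is a separate animal, so p-values measure the spread between these libraries, which may be technical. Mouse ages are not given in the labels used here, and the human allele was not measured as a feature of its own.

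Total counts ran from 35860445 to 56012766 per library. The sort markers were present throughout: Kit stood between 410 and 1226 CPM (counts scaled to a common TMM-normalised library size), Ly6a, which encodes Sca1, between 30.6 and 275 CPM, and Cd34 between 427 and 1376 CPM. Several libraries stood apart. R882H NaCl replicate 1 held 274 CPM of 12 summed T and NK cell markers, against 37.3 to 91.1 CPM in the other 15 libraries. WT azacitidine replicate 2 held 12582 CPM of 10 genes listed as azurophil granule genes, against 2438 to 6138 CPM in the other 15. R882H NaCl replicate 2 held 10390 CPM of 13 erythroid and megakaryocyte markers, against 1651 to 4120 CPM in the other 15. R882H azacitidine replicate 2 held 651 CPM of the 10 genes described here, against 4.45 to 333 CPM in the others. In bulk RNA, fewer cells of a type and less RNA per cell cannot be told apart.

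The 10 genes were a very small part of the RNA, between 0.000464 and 0.0663% of gene counts, or 186 to 35549 counts per library. Levels that can be compared between genes are the deposited FPKM, which are scaled by length. Over the 16 libraries the median FPKM was highest for S100a8 (13.6) and S100a9 (13.6), followed by Ngp (2.31), Camp (2.10) and Cxcr2 (1.02). Lcn2 (0.514), Retnlg (0.443), Ltf (0.432), Mmp8 (0.232) and Mmp9 (0.140) had medians below 1 FPKM. The FPKM ranges of neighbours in this order overlapped across libraries, from 1.21 to 215 for S100a8 and from 0.350 to 172 for Ngp.

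S100a8 and S100a9 (chromosome 3, GRCm38, 90668978 to 90670035 and 90692632 to 90695721, with a gap of 22.6 kb) encode the 2 chains of calprotectin, a neutrophil alarmin that binds calcium and zinc. S100a8 stood at 1.00, 155, 1.11, 2.72 and 2.00 CPM in R882H azacitidine replicates 1 to 5, and at 54.2, 6.96, 0.862 and 4.25 CPM in R882H NaCl replicates 1 to 4. It stood at 20.9, 15.9 and 81.5 CPM in WT azacitidine replicates 1 to 3, and at 4.74, 13.3, 21.3 and 30.8 CPM in WT NaCl replicates 1 to 4. R882H azacitidine replicate 2 was the highest of all libraries while the other 4 of its group were among the lowest, and every pair of groups overlapped. S100a9 had 0.469, 118, 0.447, 1.86 and 0.395 CPM with azacitidine in R882H cells, and 39.3, 5.34, 0.431 and 4.91 CPM with NaCl. In WT cells it had 13.7, 10.4 and 65.1 CPM with azacitidine, and 3.12, 9.92, 14.5 and 24.0 CPM with NaCl. The order of libraries was close to that of S100a8, and the count ratio of S100a9 to S100a8 had a median of 0.684 over the 16 libraries, with 0.198 and 1.16 as its extremes.

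**Figure D1:**
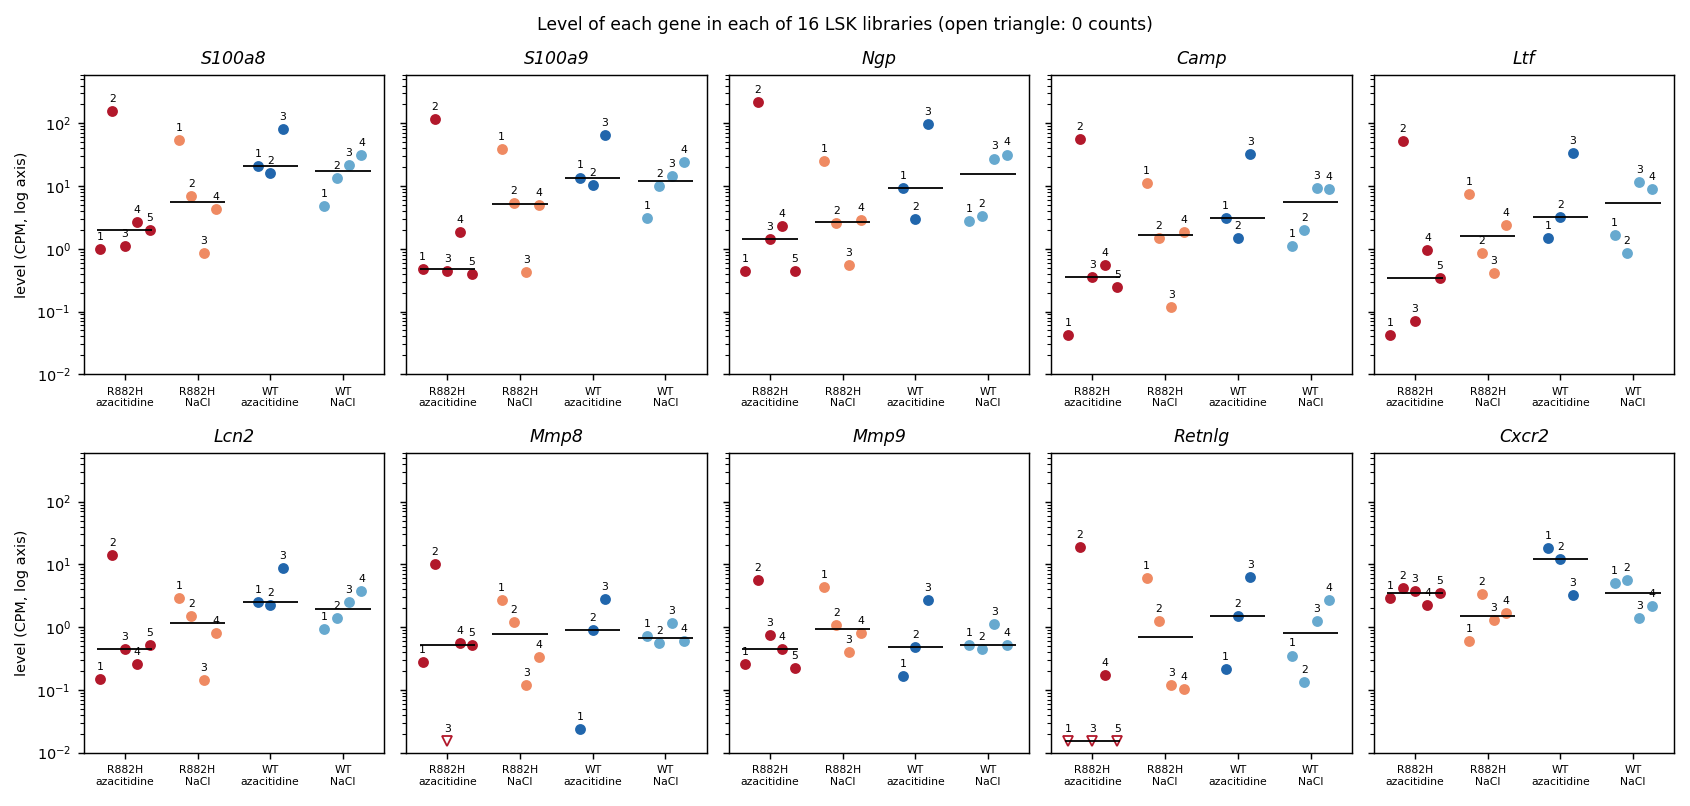
Level of each of the 10 genes (CPM, log axis) in every library, with the replicate number beside each point, the group median as a bar and open triangles for libraries with 0 counts. For 9 genes the point of R882H azacitidine replicate 2 is the highest of the 16, and Cxcr2 is highest in WT azacitidine replicates 1 and 2.

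Ngp, Camp and Ltf are the classical secondary granule genes of the set and lie within 1195 kb of each other on chromosome 9. Ngp (110419747 to 110423012), which encodes neutrophilic granule protein, a cathelicidin-related protein, stood at 0.448, 218, 1.41, 2.33 and 0.444 CPM in R882H azacitidine libraries, and at 25.5, 2.57, 0.551 and 2.87 CPM in R882H NaCl libraries. In WT cells Ngp stood at 9.28, 3.03 and 96.4 CPM with azacitidine, and at 2.72, 3.33, 27.5 and 31.8 CPM with NaCl. The highest library again belonged to the group that also held the lowest. Camp (109847379 to 109849617), the gene of the antimicrobial cathelicidin CRAMP, had 0.0426, 55.8, 0.353, 0.556 and 0.247 CPM with azacitidine and 11.3, 1.49, 0.120 and 1.83 CPM with NaCl in R882H cells. In WT cells Camp had 3.14, 1.49 and 33.0 CPM with azacitidine and 1.13, 1.97, 9.34 and 9.04 CPM with NaCl. The Camp value in R882H azacitidine replicate 1 rested on 2 counts, and no fold is given against it.

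Ltf (111019271 to 111042767) encodes lactoferrin, the iron-binding protein that defines secondary granules. It stood at 0.0426, 51.7, 0.0706, 0.942 and 0.346 CPM in R882H azacitidine libraries and at 7.47, 0.847, 0.407 and 2.35 CPM in R882H NaCl libraries. In WT cells Ltf stood at 1.49, 3.19 and 33.5 CPM with azacitidine and at 1.67, 0.853, 11.7 and 9.09 CPM with NaCl. Lcn2, the gene of the siderophore-binding lipocalin (chromosome 2, 32384633 to 32388252), had a similar order of libraries. Its R882H libraries held 0.149, 13.9, 0.447, 0.257 and 0.519 CPM with azacitidine and 2.92, 1.52, 0.144 and 0.791 CPM with NaCl. Its WT libraries held 2.47, 2.27 and 8.60 CPM with azacitidine and 0.916, 1.39, 2.51 and 3.82 CPM with NaCl. For both genes R882H azacitidine replicate 2 and WT azacitidine replicate 3 were the top 2 libraries.

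Mmp8, neutrophil collagenase (chromosome 9, 7558456 to 7568485), had 0.277, 10.1, 0, 0.556 and 0.519 CPM with azacitidine and 2.66, 1.21, 0.120 and 0.333 CPM with NaCl in R882H cells. In WT cells it had 0.0240, 0.893 and 2.80 CPM with azacitidine and 0.728, 0.560, 1.16 and 0.609 CPM with NaCl. One library was again far above all others. The count of 0 in R882H azacitidine replicate 3 allows up to 0.0706 CPM (3 counts, counting error only), so its highest level was at least 143-fold higher. Mmp9, gelatinase B (chromosome 2, 164940780 to 164955850), stood at 5.56 CPM in R882H azacitidine replicate 2, 4.43 CPM in R882H NaCl replicate 1 and 2.69 CPM in WT azacitidine replicate 3, and between 0.168 and 1.11 CPM in the other 13 libraries. It was the gene for which WT azacitidine replicate 3 was not the second highest among the 9 that peaked in R882H azacitidine replicate 2. Retnlg (chromosome 16, 48872621 to 48874496) had 18.6 CPM in R882H azacitidine replicate 2 and no count in replicates 1, 3 and 5 of the same group. These zeros allow up to 0.0639, 0.0706 and 0.0741 CPM, and the level in replicate 2 was at least 291-fold higher than in replicate 1. Retnlg stood at 0.104 to 5.96 CPM in R882H NaCl libraries, 0.216 to 6.29 CPM in WT azacitidine libraries and 0.133 to 2.67 CPM in WT NaCl libraries.

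Cxcr2 (chromosome 1, 74153989 to 74161246), the receptor for the neutrophil-attracting chemokines CXCL1 and CXCL2, had another pattern. It stood at 2.88, 4.14, 3.81, 2.25 and 3.46 CPM in R882H azacitidine libraries and at 0.590, 3.42, 1.29 and 1.69 CPM in R882H NaCl libraries. In WT cells it stood at 18.4, 12.0 and 3.21 CPM with azacitidine and at 4.96, 5.63, 1.39 and 2.15 CPM with NaCl. It was highest in WT azacitidine replicates 1 and 2, where the sum of the other 9 genes ranked 6 and 7 of 16, and lowest in R882H NaCl replicate 1, where that sum ranked 3. Its share of the summed counts of the 10 genes was 0.383% at its lowest, in R882H NaCl replicate 1, and 51.7% at its highest, in R882H azacitidine replicate 1.

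**Figure D2:**
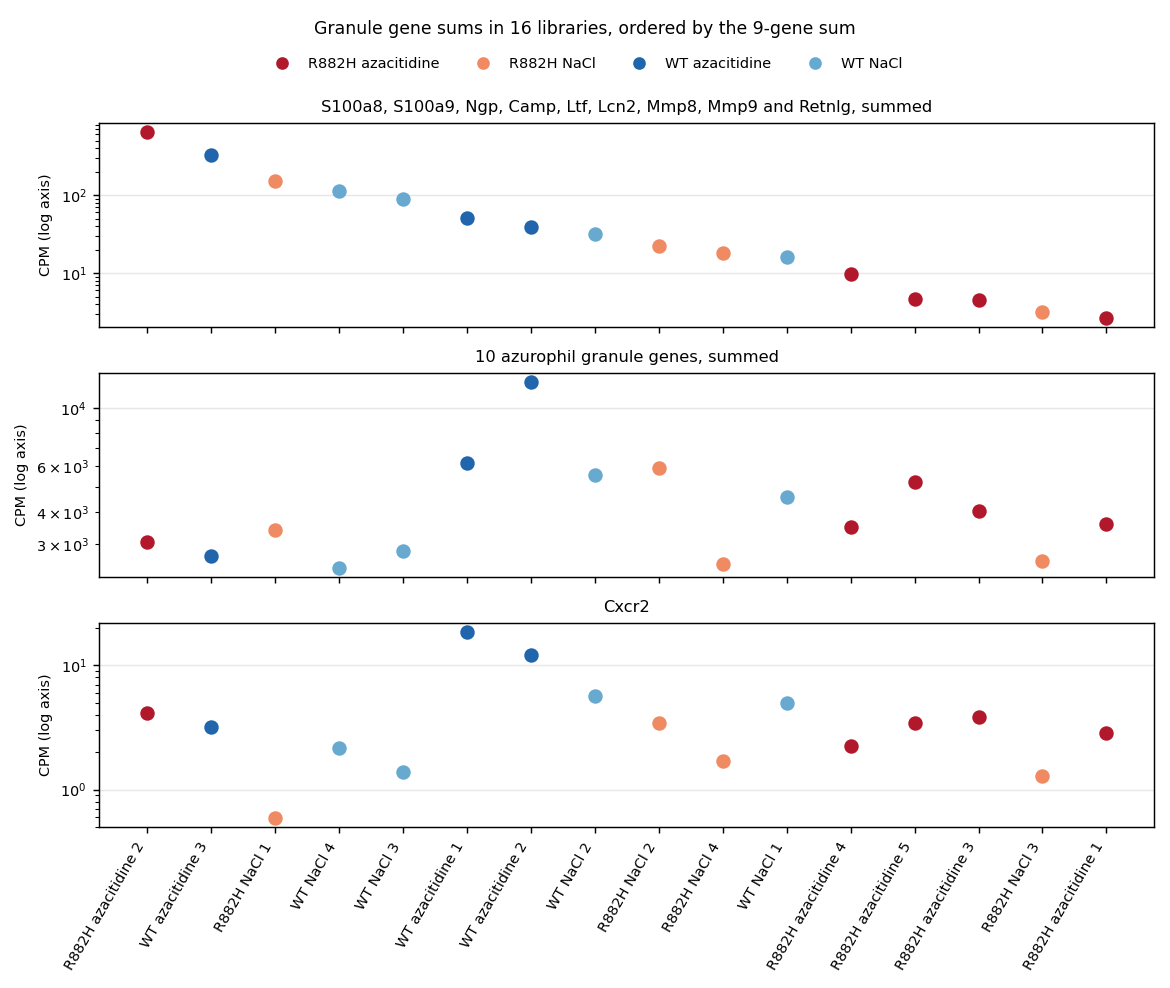
Summed CPM of the 9 genes other than Cxcr2 (top), of 10 genes listed as azurophil granule genes (middle) and of Cxcr2 (bottom), each on a log axis, in the 16 libraries ordered by the top panel. The 9-gene sum is 647 CPM at one end of this order and 2.69 CPM at the other, while the azurophil sum and Cxcr2 peak at WT azacitidine replicates 2 and 1.

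The spread of these genes within groups was among the widest measured. The biological coefficient of variation that edgeR estimated was 94.6 to 176% for the 9 genes other than Cxcr2, with a median of 31.5% over all genes tested. Retnlg had the widest, above 99.4% of genes, and Mmp9 the narrowest of the 9, above 95.9% of genes. Cxcr2, at 55.0%, lay above 81.3% of genes. The highest of the 16 libraries was R882H azacitidine replicate 2 for 9 of the 10 genes, and for 2.54% of all genes tested. WT azacitidine replicate 3 was the highest for none of the 10 and for 2.65% of all genes.

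The 9 genes varied together. After subtracting group means, Pearson's r of log2 CPM over the 16 libraries was 0.70 to 0.99 for the 36 pairs among them, with a median of 0.90. S100a8 and S100a9 stood at the top, and Mmp8 with Ngp at the bottom. Without R882H azacitidine replicate 2, the 36 values were 0.45 to 0.97 with a median of 0.78. Cxcr2 went the other way, with r of -0.44 to -0.17 with each of the other 9 over 16 libraries and -0.82 to -0.43 over 15. The points of each correlation share library, depth and normalisation, and are given as a description.

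**Figure D3:**
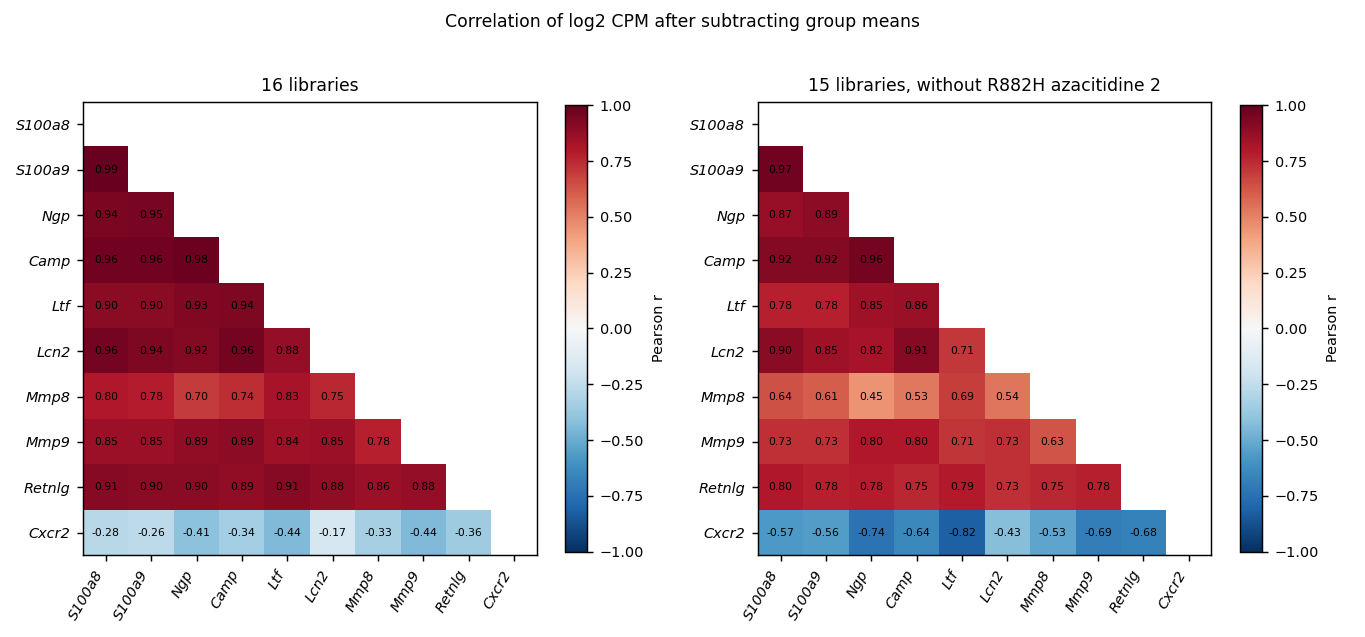
Pearson's r between genes of their log2 CPM after subtracting group means, over 16 libraries (left) and without R882H azacitidine replicate 2 (right). The 36 pairs among the first 9 genes are positive in both panels, and all 9 pairs with Cxcr2 are negative.

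The proportions between the genes differed between libraries. Counts of Ngp exceeded those of S100a8 in 5 libraries, with ratios of 1.41 in R882H azacitidine replicate 2, 1.28 in R882H azacitidine replicate 3, 1.18 in WT azacitidine replicate 3, and 1.29 and 1.04 in WT NaCl replicates 3 and 4. The ratio was 0.470 in R882H NaCl replicate 1, which had the third highest sum, and 0.190 in WT azacitidine replicate 2. Ngp took 33.5% of the 10-gene counts in R882H azacitidine replicate 2 and 5.45% in R882H azacitidine replicate 5.

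Sequence upstream of the start was available from RefSeq (GRCm38.p6) for 9 of the 10 genes. Mmp9 had no entry. The runs below show where matches to binding motifs of granulocytic transcription factors lie in 3 genes that varied together and in Cxcr2, which did not follow them. Capitals mark matches on either strand to TTNNGNAA, a C/EBP motif, or to GAGGAA, a PU.1 core. Each run is 5′ to 3′ along the gene's strand and stops before the annotated gene.
S100a9: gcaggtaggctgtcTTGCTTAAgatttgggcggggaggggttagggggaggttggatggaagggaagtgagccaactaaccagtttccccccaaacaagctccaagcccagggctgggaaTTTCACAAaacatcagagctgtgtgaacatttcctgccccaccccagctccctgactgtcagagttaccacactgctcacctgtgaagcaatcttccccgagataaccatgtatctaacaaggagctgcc
Ngp: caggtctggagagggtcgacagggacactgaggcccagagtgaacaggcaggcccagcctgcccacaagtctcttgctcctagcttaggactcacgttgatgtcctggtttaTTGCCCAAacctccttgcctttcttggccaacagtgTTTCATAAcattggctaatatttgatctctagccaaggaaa
Ltf: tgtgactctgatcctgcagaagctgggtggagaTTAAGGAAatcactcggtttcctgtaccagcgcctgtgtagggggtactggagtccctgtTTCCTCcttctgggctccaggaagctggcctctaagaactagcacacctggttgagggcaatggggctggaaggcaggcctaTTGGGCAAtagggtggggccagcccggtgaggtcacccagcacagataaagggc
Cxcr2: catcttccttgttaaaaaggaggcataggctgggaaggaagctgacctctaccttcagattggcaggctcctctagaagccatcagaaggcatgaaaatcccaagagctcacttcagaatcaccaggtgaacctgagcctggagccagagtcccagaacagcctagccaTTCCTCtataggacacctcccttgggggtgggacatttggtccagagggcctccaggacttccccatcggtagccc
The S100a9 run lies on the minus strand at chr3:90695722-90695971, and the Ngp and Ltf runs on the plus strand at chr9:110419558-110419746 and chr9:111019042-111019270. The Cxcr2 run lies on the plus strand at chr1:74153744-74153988. In the full 250 bases before the RefSeq start, 7 of the 9 genes held the C/EBP letters, which 36.8% of 32851 promoters held, and Camp and Cxcr2 did not. The PU.1 letters were in 5 of 9, S100a8, Ltf, Lcn2, Mmp8 and Cxcr2, and in 23.3% of all promoters. For Lcn2 the 250 bases lie wholly inside the annotated gene, so its C/EBP and PU.1 matches are not upstream of that gene. AAATCNC, a GFI1 motif, was in Ltf, Mmp8 and Cxcr2 and in 10.3% of promoters, and TATAAA was in S100a8 and in 12.4%. In Ltf the GFI1 match overlaps the first C/EBP match. Of the 250 bases, the first 157 for S100a8 and the first 189 for Ngp lie before the annotated gene. The S100a8 matches to TATAAA at -30 and to PU.1 at -36 from the RefSeq start therefore lie inside that gene. So does the Ngp match to C/EBP at -11 inside its own. A match is a description of these letters, not a measured site.

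The first comparison set azacitidine against NaCl in R882H cells. None of the 10 was called by edgeR's quasi-likelihood test at an adjusted p under 0.05, where 0.00545% of all genes were, and none had an unadjusted p under 0.05, where 6.69% of all genes did. None was called by DESeq2, which gave 9 of them an adjusted p, or by limma-voom, where 0.5 and 0.00545% of genes were called. The edgeR log2 change was positive for 9 of 10, with a median of 1.07 beside -0.04 over all genes. With limma-voom it was positive for 1 of 10, with a median of -0.54. The edgeR change was 2.51 (SE 1.75) for Ngp, 1.95 (SE 1.64) for Ltf and 0.97 (SE 1.40) for S100a8. It was 0.92 (SE 0.54) for Cxcr2 and -0.20 (SE 0.96) for Mmp9. The change was past 1 either way for 6 of the 10 and for 8.39% of all genes. These values rested on 1 library: without R882H azacitidine replicate 2 the median was -2.86 and 1 of 10 genes, Cxcr2 at 0.82, was positive, with S100a8 at -3.27 and Ngp at -2.75. Without R882H NaCl replicate 1 the median was 2.86. No gene of the 10 separated the groups with all libraries, where 1.57% of all genes did, or without R882H azacitidine replicate 2, where 2.5% did.

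Azacitidine was then set against NaCl in WT cells. None of the 10 genes was called by edgeR, where 0.0% of all genes were, by DESeq2 (0.251%) or by limma-voom (0.0%). Cxcr2 alone had an unadjusted p under 0.05, as 6.02% of all genes did. All 10 log2 changes were positive, with a median of 1.16 beside 0.01 over all genes, from 0.69 (SE 1.44) for Mmp8 to 1.67 (SE 0.59) for Cxcr2, whose adjusted p was 0.825. Cxcr2 averaged 11.2 ± 7.65 CPM with azacitidine (SD, n = 3) and 3.53 ± 2.07 CPM with NaCl (SD, n = 4), and the ranges overlapped. No gene of the 10 separated the groups, where 5.73% of all genes did, and 8 of the 10 changes were past 1 either way, where 9.33% were. Without WT azacitidine replicate 3 the median of the 10 was -0.55, 3 of 10 were positive, and Cxcr2 stood at 2.10. Ngp, for example, had 9.28 and 3.03 CPM in the remaining azacitidine libraries, inside the range of 2.72 to 31.8 CPM with NaCl.

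The difference between the R882H and WT azacitidine responses was tested directly. None of the 10 genes passed in edgeR, where 0.0% of genes were called, in DESeq2 (0.0776%) or in limma-voom (0.0%), and none had an unadjusted p under 0.05, where 6.07% did. Of the 10 differences, 5 were positive and 5 negative, from 1.36 (SE 2.48) for Ngp to -0.98 (SE 1.47) for Mmp9. Standard errors were 0.79 for Cxcr2 and 1.47 to 2.59 for the other 9 genes. The median was -0.02, and -1.23 with 1 of 10 positive in limma-voom. The edgeR median was -3.99 with all 10 negative when R882H azacitidine replicate 2 was left out. It was 1.22 without WT azacitidine replicate 3 and 1.61 without R882H NaCl replicate 1.

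R882H was also set against WT under each treatment. Under azacitidine no gene of the 10 was called by edgeR, where 0.00545% of genes were, by DESeq2 (0.119%) or by limma-voom (0.0%), and Cxcr2 alone had an unadjusted p under 0.05, as 9.34% of genes did. Cxcr2 averaged 3.31 ± 0.754 CPM in R882H cells (SD, n = 5) and 11.2 ± 7.65 CPM in WT cells (SD, n = 3), a log2 difference of -1.76 (SE 0.55, adjusted p 0.533 in edgeR). WT azacitidine replicate 3, at 3.21 CPM, lay inside the R882H range. The median of the 10 log2 differences was -0.20. It was -4.74, with all 10 negative, without R882H azacitidine replicate 2, and 2.14, with 9 of 10 positive, without WT azacitidine replicate 3. With the first of these left out, 7 of the 10 genes (S100a8, S100a9, Ngp, Camp, Ltf, Lcn2 and Retnlg) were lower in all 4 R882H libraries than in all 3 WT libraries, where 10.6% of all genes were and 21.6% separated the groups either way. None was called by edgeR then, with 0.471 as the lowest adjusted p of the 10. R882H azacitidine replicate 2 was left out after these genes were seen to peak in it. That choice favours lower R882H values for them, so the share of all genes is not a like measure. The same count without WT azacitidine replicate 3 was not made. With R882H azacitidine replicate 2 kept, none of the 10 separated the groups, where 10.7% of genes did.

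Under NaCl none of the 10 genes was called by edgeR (0.00545% of genes), DESeq2 (0.153%) or limma-voom (0.00545%), and none had an unadjusted p under 0.05, where 5.59% did. The log2 differences between R882H and WT ran from -1.08 (SE 1.66) for Ltf to 1.36 (SE 1.05) for Mmp9, with a median of -0.32. They were past 1 either way for 4 of the 10 and for 6.95% of all genes, and no gene of the 10 separated the groups, where 1.97% of genes did. S100a8 averaged 16.6 ± 25.2 CPM in R882H cells and 17.5 ± 11.1 CPM in WT cells (SD, n = 4 each). Without R882H NaCl replicate 1, which also held the T cell transcripts, the median was -1.62 and 1 of 10 was positive. Cxcr2 stood at -1.01 (SE 0.56) with all libraries.

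**Figure D4:**
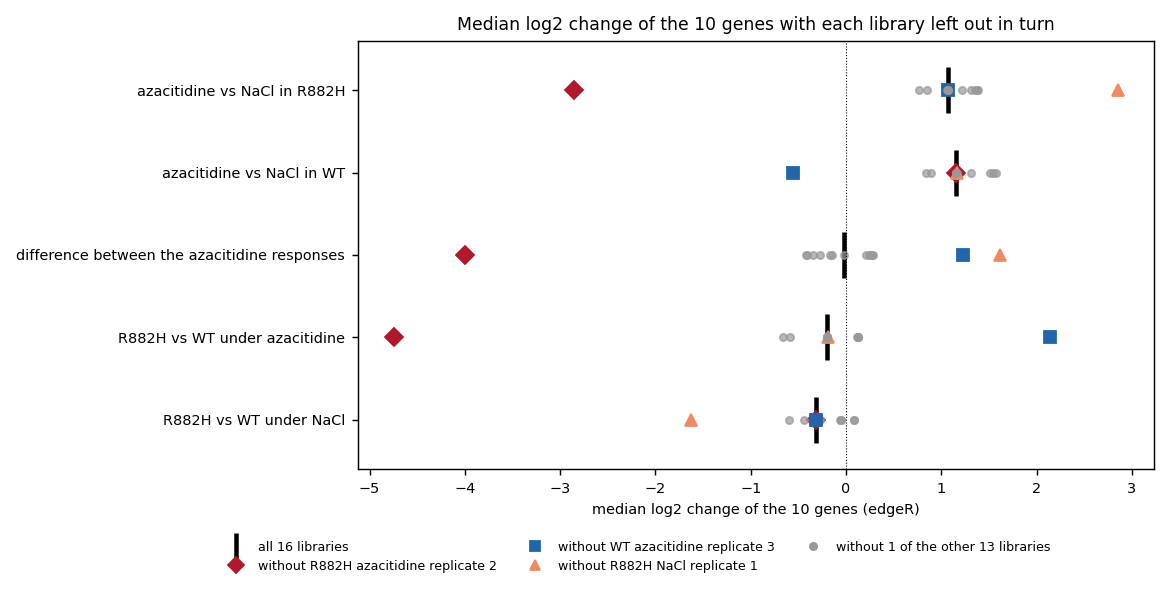
Median edgeR log2 change of the 10 genes in each comparison (rows), with all 16 libraries (black bar) and with each library left out in turn (points). Leaving out R882H azacitidine replicate 2 moves the first row to -2.86 and the fourth to -4.74, and leaving out WT azacitidine replicate 3 moves the second to -0.55.

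The labels do not say what the replicate numbers stand for, and the 9-gene sum did not follow them in the same way in each group. In R882H azacitidine, replicates 1 and 2 held both the lowest and the highest sum of all libraries, 2.69 and 647 CPM, against 4.59 to 9.84 CPM in replicates 3 to 5. In WT azacitidine it was 51.4 and 39.2 CPM in replicates 1 and 2 and 330 CPM in replicate 3. In WT NaCl the 9-gene sum was 15.9 and 32.0 CPM in replicates 1 and 2 and 90.4 and 112 CPM in replicates 3 and 4. In R882H NaCl it ran the other way, with 154 and 22.3 CPM in replicates 1 and 2 and 3.16 and 18.3 CPM in replicates 3 and 4. Among libraries numbered 1 and 2 the median log2 change of the 10 genes was 1.43 for azacitidine against NaCl in R882H, 0.94 in WT, 3.36 for R882H against WT under azacitidine and 1.79 under NaCl. Among libraries numbered 3 and above it was -0.40, 1.67, -5.74 and -2.87 in the same order, with 1 WT azacitidine library.

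Other late neutrophil genes were examined as a list of 46, chosen with the results known, of which 36 were tested. Their highest library was R882H azacitidine replicate 2 for 10 and WT azacitidine replicate 2 for 13. Chil3, a chitinase-like protein of maturing neutrophils, reached 55.2 CPM in R882H azacitidine replicate 2, 32.6 CPM in WT azacitidine replicate 3 and 9.47, 7.87 and 6.91 CPM in WT NaCl replicates 3 and 4 and R882H NaCl replicate 1. Its level in the other 11 libraries was 0.0479 to 1.27 CPM. Cd177, a neutrophil surface protein, had 15.7 and 5.52 CPM in the first 2 of these libraries, and Fcnb, a ficolin made by myeloid cells, had 13.8 and 5.47 CPM. Ly6g, the antigen by which mature mouse neutrophils are sorted, had no count in 9 of 16 libraries and at most 0.95 CPM, in R882H azacitidine replicate 2. Lyz2, lysozyme of neutrophils and macrophages, stood at 831 CPM there and at 203 to 440 CPM in the others.

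With the mean log2 CPM of the 9 genes, after subtracting group means, 13 of the 36 late neutrophil genes had r above 0.5 over the 16 libraries, where 2.64% of all genes did. Wfdc21 (0.94), Chil3 (0.92), Cd177 (0.90) and Mcemp1 (0.87) were the highest of the 36. Without R882H azacitidine replicate 2 it was 10 of 36, and Wfdc21 (0.89) and Chil3 (0.85) again stood high. By a rule that ranked all genes with a mean log2 CPM of at least 0 on their r with the mean of all 10 genes, the 10 most alike included Chil3, Lgals3, Ccl6, Lilr4b, Mttp, Muc3a, Lrrc42, Slfn2 and Gm13822, with r of 0.92 to 0.72. The first 5 of these names were highest in R882H azacitidine replicate 2. Lgals3, which encodes galectin-3, stood at 33.0 CPM there with a median of 5.29 CPM in the other 15 libraries, and Ccl6, a chemokine of myeloid cells, at 18.2 CPM with a median of 3.13 CPM. The list depended on that library: 2 of the 10, Chil3 and Lgals3, were also among the 10 most alike without it. Ranked on Cxcr2 alone, the gene most alike was Trem1, an activating receptor of neutrophils and monocytes, with r of 0.90, highest at 7.90 CPM in WT azacitidine replicate 2.

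The 10 genes listed here as azurophil granule genes were Mpo, Elane, Prtn3, Ctsg, Ctsc, Ms4a3, Cst7, Gstm1, Plac8 and Nkg7. They were taken as markers of the stage before, and not all of them need encode azurophil granule proteins. They did not share the library order of the 9 genes. They were highest in WT azacitidine replicate 2 for 9 of 10 genes, where 9.79% of all genes were highest. Elane, neutrophil elastase, stood at 211 CPM in R882H azacitidine replicate 2 and at 190 CPM in WT azacitidine replicate 3, within its range of 99.9 to 1566 CPM. Mpo, myeloperoxidase, stood at 881.9 and 840 CPM in those libraries, its lowest levels among the 16, and at 5814 CPM in WT azacitidine replicate 2. The ratio of summed azurophil to summed 9-gene CPM ran from 4.75 in R882H azacitidine replicate 2 to 1342 in R882H azacitidine replicate 1. The 10 azurophil genes had r of -0.56 to 0.04 with the mean of the 9. The edgeR test called none of them in any comparison, and 5 of 10 had an unadjusted p under 0.05 for R882H against WT under azacitidine, all negative, led by Prtn3 (-1.51, SE 0.40), where 9.34% of all genes did. For azacitidine against NaCl in WT cells 4 of 10 did, all positive, where 6.02% of all genes did.

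**Figure D5:**
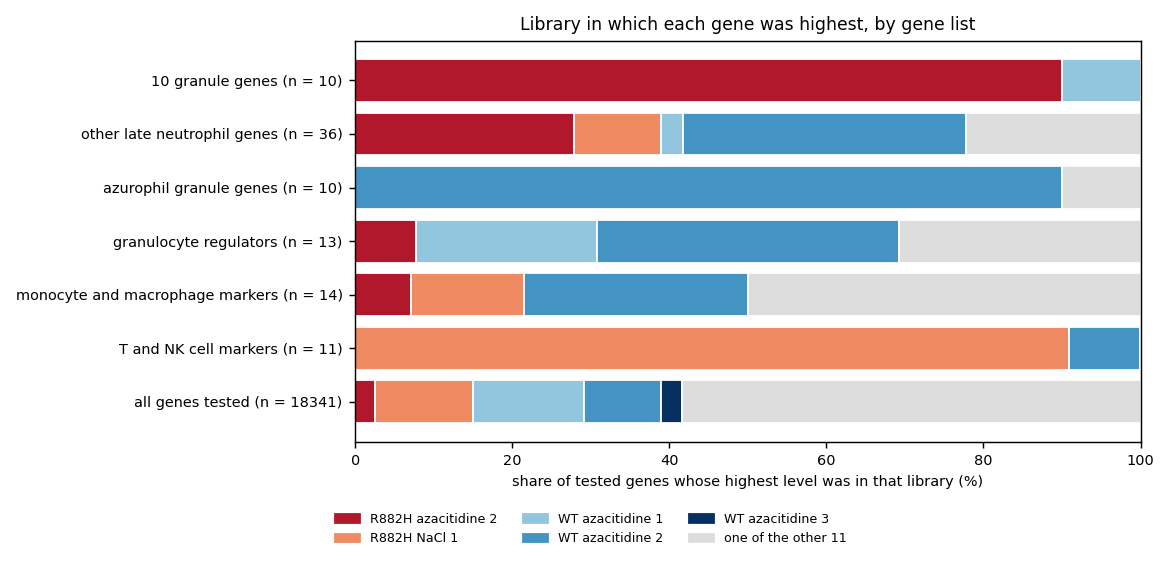
Share of the tested genes of each list (rows) whose highest level among the 16 libraries was in each of 5 named libraries or in one of the other 11 (colours). R882H azacitidine replicate 2 holds 9 of the 10 genes described here and 2.54% of all genes, and WT azacitidine replicate 2 holds 9 of the 10 azurophil genes.

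Of 14 listed regulators of granulocyte development, 13 were tested, and Csf3, which encodes the cytokine G-CSF, had no count in 15 of 16 libraries. Cebpe, the C/EBP member required for secondary granules, stood at 6.88 CPM in R882H azacitidine replicate 2 and 3.57 CPM in WT azacitidine replicate 3, within a range of 1.22 to 14.6 CPM, and had r of 0.04 with the mean of the 9 genes. Csf3r, the G-CSF receptor, stood at 71.0 to 267 CPM with r of -0.41. Cebpb, the C/EBP member of emergency granulopoiesis, had r of 0.63, and 0.32 without R882H azacitidine replicate 2. It was the 1 regulator of 13 with r above 0.5, where 2.64% of all genes were. Below -0.5 were 2 of the 13, Cebpa (-0.55) and Runx1 (-0.56), where 6.28% of all genes were. The median r of the 13 was -0.19. None of the 13 tested regulators was called by edgeR in any comparison. In WT cells 4 of them had an unadjusted p under 0.05 for azacitidine against NaCl, all positive, Cebpd (1.11, SE 0.35), Cebpa (0.92, SE 0.34), Cebpe (1.49, SE 0.63) and Runx1 (0.47, SE 0.22), where 6.02% of all genes did.

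Listed ligands, receptors and partners of the 10 gene products differed widely in level. Slc22a17, Timp2 and Cxcr4 were counted in every library, with 5595, 4724 and 2393 as their highest counts, and others were low. Cxcl1, a ligand of CXCR2, had no count in 14 of 16 libraries, and Cxcl2 had none in 6 and at most 1.94 CPM. Cxcr1, the other receptor of this kind, stood at 0 to 2.69 CPM, with a log2 change of 1.80 (SE 0.67) for azacitidine against NaCl in R882H and of 2.38 (SE 0.74) in WT, adjusted p 0.618 and 0.802 in edgeR. Tlr4, a receptor for calprotectin, stood at 4.63 to 17.3 CPM. Timp1, an inhibitor of MMP9, had no count in 10 libraries and at most 4 counts. Of the neighbouring S100 genes, S100a6, a calcium-binding protein of many cell types, had r of 0.61 with the mean of the 9. It was highest in R882H NaCl replicate 1 (109 CPM), followed by R882H azacitidine replicate 2 (83.9 CPM).

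Markers of other mature cells were read in the libraries with the highest sums, and their part in the result was not tested. The 16 monocyte and macrophage markers summed to 177 to 305 CPM in R882H azacitidine libraries, 150 to 254 CPM in R882H NaCl libraries, 165 to 341 CPM in WT azacitidine libraries and 70.0 to 195 CPM in WT NaCl libraries. R882H azacitidine replicate 2 held 198 CPM, inside the ranges of the other azacitidine group and of R882H NaCl and above that of WT NaCl. The 12 T and NK cell markers summed to 59.4 to 86.1, 45.7 to 274, 37.3 to 70.8 and 74.9 to 91.1 CPM in the same order of groups, with R882H azacitidine replicate 2 at 86.1 CPM and at most 2 markers at 0 in any library. Cd3d, a chain of the T cell receptor complex, was detected in every library, at 22.3 CPM in R882H NaCl replicate 1 and at most 2.41 CPM elsewhere. The 12 B and plasma cell markers summed to 16859 to 48982, 1209 to 23412, 1072 to 26540 and 3342 to 44263 CPM in that order of groups, lowest of its group in R882H azacitidine replicate 2 and highest of its group in WT azacitidine replicate 3. Without R882H azacitidine replicate 2, 8 of 11 T and NK cell markers and 9 of 11 B and plasma cell markers had r above 0.5 with the mean of the 9 genes, where 3.66% of all genes did. Over all 16 libraries it was 4 and 1 of 11. R882H NaCl replicate 1, which ranked 3 in the 9-gene sum, was the highest library for 10 of 11 T and NK cell markers. It was the highest for 12.4% of all genes. The r of these markers with the mean of the 9 genes was not computed without that library. None of the 13 erythroid and megakaryocyte markers had r above 0.5 with that mean, with or without R882H azacitidine replicate 2. For azacitidine against NaCl in R882H cells 9 of the 13 were negative at an unadjusted p under 0.05 and 1 was positive, where 6.69% of all genes passed, and edgeR called none of them after adjustment. Their summed level was 1776 to 2156 CPM with azacitidine and 1906 to 10390 CPM with NaCl.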

How the data were processed

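Libraries were sequenced from amplified low-input RNA of sorted LSK cells. Per the submitters' processing notes, the authors used HISAT2 2.0.5, featureCounts 1.6.2 and edgeR 3.26.6 with GRCm38/mm10. The deposited files hold whole-number counts per gene and the authors' FPKM, scaled by length and library. Total counts were 35860445 to 56012766 per library, and 0-count limits (3 counts) cover counting error only. Repeat features, 2.97 to 10.1% of counts, were kept out of library sizes and tests.

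Counts were fitted with edgeR 4.0.16 (quasi-likelihood test, TMM, filterByExpr, 18341 genes, Benjamini-Hochberg adjustment over all genes) on all 16 libraries with 1 coefficient per group. The SE beside an edgeR log2 change is its absolute value divided by the square root of the test's F statistic. It is not a value that edgeR reports. DESeq2 1.42.0 and limma-voom 3.58.1 were alternatives. Scripts were tested on simulated data. FPKM were used for levels between genes, and log2 CPM used a prior count of 2. No pair of the 25 within-group pairs agreed within sampling noise.

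The 10 genes and the lists were chosen with earlier results of these data known. The text names all 10, up to 4 genes per list with the lowest p, the genes of most alike pattern, of which 1 is not reported here, and the defining markers. Other named list genes were chosen after their values were seen. Coordinates are from GENCODE M21 (GRCm38) and promoters from RefSeq (GRCm38.p6). Labels give the groups shared replicate numbers. Deviations from group means of same-numbered libraries correlated above 0.1 in every pair of R882H NaCl with WT NaCl libraries (r of 0.101 to 0.342, 4 pairs). This was not so in every pair of the other comparisons. The numbers may therefore pair the NaCl groups, but the labels do not say so and these r values do not settle it. The main fits used no pairing, and a replicate block over all 4 groups was an alternative.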

Additional observations from a re-analysis of the deposited data

Results flagged for a closer look

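Single libraries stood far from the rest of their group, by a gap beyond Dixon's 95% critical value, in 15 of the 30 groups of values examined. For normally distributed values chance flags about 1 in 20 groups. These were CPM of widely spread genes chosen with earlier results known, and the 10 genes are not independent of each other. That rate is therefore not a like measure for them.

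In the R882H azacitidine group, replicate 2 stood apart for 9 genes. It held 155 CPM of S100a8, 118 CPM of S100a9, 218 CPM of Ngp, 55.8 CPM of Camp and 51.7 CPM of Ltf. It also held 13.9 CPM of Lcn2, 10.1 CPM of Mmp8, 5.56 CPM of Mmp9 and 18.6 CPM of Retnlg.

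In the R882H NaCl group, replicate 1 stood apart for 5 genes, with 54.2 CPM of S100a8, 39.3 CPM of S100a9, 25.5 CPM of Ngp, 11.3 CPM of Camp and 4.43 CPM of Mmp9. In the WT NaCl group, replicate 3 stood apart for Mmp9, at 1.11 CPM. The WT azacitidine group, with 3 libraries, was not examined in this way.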

How the results depend on the processing

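None of the 10 genes was called in any of the 134 alternatives run over the 5 comparisons. Of all genes, edgeR called 0 to 7 with 1 library left out, and DESeq2 at most 0.5%. DESeq2 gave Lcn2 no p-value, and 9 of the 10 were tested with only the R882H groups. The single genes' log2 changes moved by more than the gene's SD of log2 CPM within groups in 78 cases and by less in 1261. That SD was 0.896 for Cxcr2 and up to 2.81 for Retnlg, so a smaller move can turn the sign. Without WT azacitidine replicate 3, Ngp went from 1.15 to -1.41 for azacitidine against NaCl in WT, counted as less. The median log2 change of the 10 genes moved by more than the SD of their mean log2 CPM within groups, 1.97, in 10 cases and by less in 124. With each library left out in turn it ran from -2.86 to 2.86 for azacitidine against NaCl in R882H, -0.55 to 1.57 in WT, -3.99 to 1.61 for the difference between these responses, -4.74 to 2.14 for R882H against WT under azacitidine and -1.62 to 0.08 under NaCl. With libraries numbered 1 and 2 it was 3.36 for R882H against WT under azacitidine and 1.79 under NaCl, and with those numbered 3 and above -5.74 and -2.87, and -2.07 for the difference between responses. With limma-voom it was -2.56 for R882H against WT under azacitidine, and for azacitidine against NaCl in R882H it was -0.54. The cause was not tested.

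Over all groups 9 of 21 same-numbered pairs had r above 0.1, and 6 of 16 libraries correlated best with their own number. No fit paired the NaCl groups alone. With the replicate block, fitted over all 4 groups, the medians were 0.21, 0.93, -0.73, -1.03 and -0.38 in the order above. None of the 10 genes was called. In the NaCl comparison 1 gene of all was called with and without the block. DESeq2 called 88, 46, 12, 21 and 28 genes in all, where edgeR called 1, 0, 0, 1 and 1. The difference between responses uses all 4 groups, so a fit on only the groups compared was not run for it. The like-pattern values, correlations and counts of separated genes without R882H azacitidine replicate 2, and the genes most like Cxcr2, were chosen after seeing the data. Counts as low as 2 limit the lowest levels of Camp and Ltf.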
